A study of Rattus norvegicus with 24 samples.

Results

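MK-801 (dizocilpine) blocks the open channel of the NMDA receptor, a glutamate-gated cation channel that lets calcium into neurons and is needed for many forms of synaptic plasticity. Systemic doses are known to raise the firing of many cortical pyramidal cells, and the drug is used in rodents to model psychosis-like states. Immediate early genes are transcribed within minutes of a stimulus without new protein synthesis. In the brain they are read as traces of neuronal activity, of vascular responses and of stress hormones, and many of them encode transcription factors, phosphatases or secreted matrix proteins.

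The comparison described here is the cerebral cortex of male Wistar rats given 0.16 mg/kg MK-801 intraperitoneally against the cerebral cortex of male Wistar rats given saline, with brains taken 40 min after injection. Its members are 2 of the series' 24 arrays, chosen by their titles: on array 1 the treated RNA carried Cy5 and the saline RNA Cy3, and on array 2 the dyes were exchanged. Every title puts the word Control before saline and before the dose, so all groups used here share that label. Comparisons were made with the 2 cortex arrays of rats given 0.08 mg/kg and with the 10 arrays of hippocampus, amygdala, ventral striatum, hypothalamus and midbrain of rats given 0.16 mg/kg, each hybridised against saline RNA of its own region. The labels give 9 rats in all, 3 of them with saline, and an age of 9 weeks in the sample labels but 10 weeks in the design text. How many rats were pooled, and whether the dye swap repeated the same RNA, is left unstated by the labels.

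Values below are on the log2 scale, treated over saline, so that 0 is no difference and positive values are higher in treated cortex, with the sign of array 2 turned. The pair of arrays was counted as 1 replicate. A gene was tested where it was well above background on both cortex arrays, in the treated or the saline channel, and in at least 3 of the other 5 regions, which left 21754 of 35526 features, 11132 of them with a gene symbol. In the limma fit the standard error came from the spread of the response among the other 5 regions, which the single cortex value is assumed to share. With 3 saline rats for 6 regions, regions share animals, so their responses are not independent. The p-values thus measure a spread between regions that may be technical, not the spread between rats. An adjusted p (Benjamini-Hochberg) under 0.05 is called past the threshold.

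The piece carried the signature of its label. In the saline channel, cortical glutamatergic neuron markers were a median of 1.18 log2 units above the mean of the other regions, with 16 of 20 higher. Thalamic markers were lower by 1.09 log2 units at the median (0 of 9 higher) and striatal markers by 0.75 (2 of 15 higher). Each region had a slide of its own, so slide and region cannot be told apart here. On the 2 arrays 71.2% to 89.7% of spots per channel were well above background (56.8% to 89.7% over all arrays), the median net signal was 103 to 353 intensity units, and 0 spots were saturated.

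Genes of the early transcriptional response stood out in the treated cortex, and most other transcripts were within the noise between the arrays. In the limma fit 59 features passed the threshold (0.271% of those tested), 35 higher (0.161%) and 24 lower (0.11%), against 1091 (5.02%) at an unadjusted p under 0.05. All 59 had 1 sign on both arrays, and their median size was 0.636. Of the higher features 24 had a gene symbol and of the lower ones 11. The features without a symbol, 11 higher and 13 lower, are not described. The count fell to 15 on array 1 alone and to 15 on array 2 alone, to 2 with the scanner software's processed signals and to 0 with the deposited value table, in which 722 features had an unadjusted p under 0.05.

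**Figure D1:**
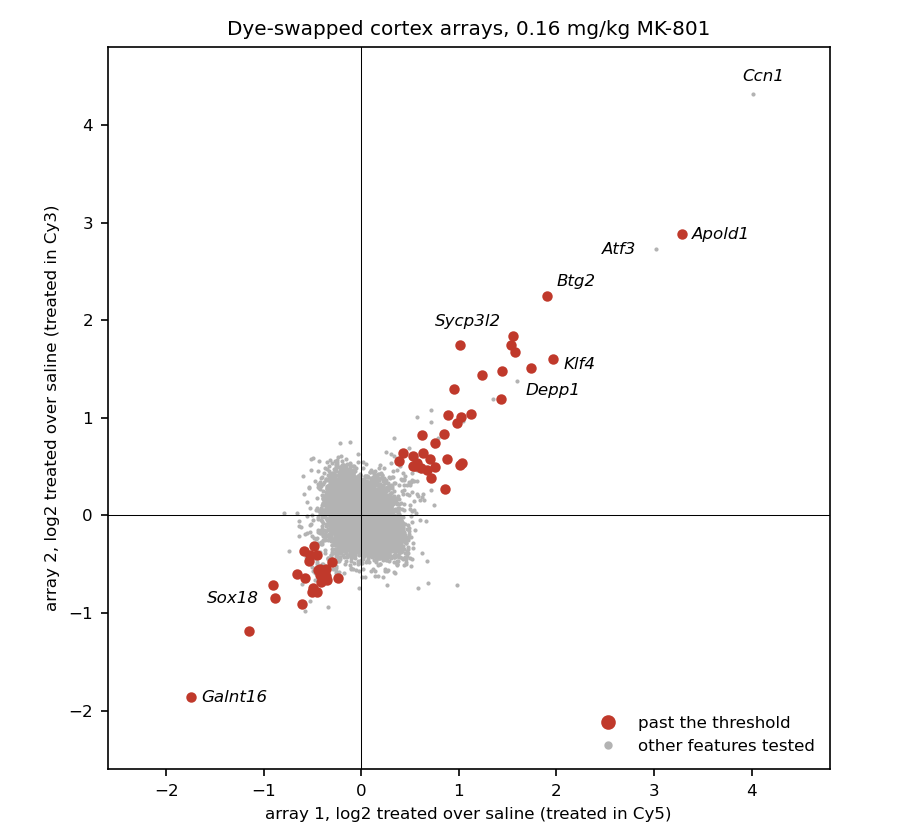
Log2 treated over saline on array 1 (x axis, treated RNA in Cy5) against array 2 (y axis, treated RNA in Cy3) for every tested feature, with features past the threshold in red. Most features form a cloud around 0 with no positive relation between the arrays, whereas Ccn1, Apold1, Atf3, Btg2 and Galnt16 lie far out on the diagonal.

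Over all tested features the ratios of the 2 arrays had a correlation across genes of -0.0939. Genes are not independent replicates, and this value is a description only. The SD of an array's deviation from the mean of both was 0.12. Small ratios seen on a single array were therefore of the size at which the 2 arrays differed. Beyond 1.5-fold on both arrays in the same direction there were 29 features higher (0.133%) and 7 lower (0.0322%).

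Apold1, listed on the array as Verge and known as an early response gene of the vascular endothelium, was the most increased gene past the threshold. It stood at 3.29 on array 1 and 2.88 on array 2, a mean of 3.08 ± 0.41 (limma SE; adjusted p = 0.0204) or 8.48-fold. Both arrays lay above every other region, where it was 0.84 to 2.34. Its probe lies on chromosome 4 (172152432 to 172152491, rn3).

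Btg2, an antiproliferative cofactor of transcription and mRNA decay, was at 1.90 and 2.25, a mean of 2.07 ± 0.33 (limma adjusted p = 0.0357). The lower of both arrays was above the highest other region, the ventral striatum at 1.80. The zinc finger factors Klf4 and Klf2, which are activated by flow in vascular endothelium among other settings, rose by 1.78 ± 0.25 (1.97 and 1.60; limma adjusted p = 0.0249) and by 1.31 ± 0.16 (1.43 and 1.19; adjusted p = 0.0184). Klf4 was 0.48 to 1.35 and Klf2 0.46 to 1.01 in the other regions, so both were again highest in the cortex.

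The basic leucine zipper factors Cebpd and Cebpb, which respond to cytokines, glucocorticoids and cAMP, both rose. Cebpd was 1.24 and 1.44 (mean 1.34 ± 0.16, limma adjusted p = 0.018) and Cebpb 0.62 and 0.82 (mean 0.72 ± 0.08, adjusted p = 0.00949). In the other regions Cebpd ranged from 0.27 to 0.74 and Cebpb from 0.07 to 0.25. Neither range reached the lower cortex array.

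Among secreted and extracellular products, the matrix protease Adamts1 was 1.54 and 1.75, a mean of 1.64 ± 0.23 (limma adjusted p = 0.0252). The monocyte-attracting chemokine Ccl2 was 1.58 and 1.67, a mean of 1.63 ± 0.25 (limma adjusted p = 0.0357). Plat, the tissue plasminogen activator, was 0.57 and 0.54, a mean of 0.55 ± 0.09 (limma adjusted p = 0.0376). For all 3, both arrays were above the other regions, whose highest values were 0.97, 0.96 and 0.20.

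Signalling regulators formed a further set. Dusp1, a phosphatase that switches off MAP kinases, was 1.44 and 1.48 (mean 1.46 ± 0.23, limma adjusted p = 0.0357) but was as high in the amygdala, at 1.52. Sik1, a cAMP-inducible kinase, was 0.95 and 1.30 (mean 1.13 ± 0.16, limma adjusted p = 0.0258), above the other regions at 0.20 to 0.81. Sgk1, a kinase induced by serum and glucocorticoids, was 0.76 and 0.74 (mean 0.75 ± 0.12, limma adjusted p = 0.0483). The midbrain (0.79) exceeded the cortex in Sgk1 and the ventral striatum (0.72) came near it, while the amygdala had no value because an outlier spot was left out. Ppp1r15a, which lets the stressed cell resume translation, was 0.85 and 0.83 (mean 0.84 ± 0.11, limma adjusted p = 0.0195), above 0.08 to 0.48 elsewhere.

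Ch25h, the enzyme that makes 25-hydroxycholesterol, was 1.02 and 1.01 (mean 1.02 ± 0.13, limma adjusted p = 0.0184). The transcriptional repressor Bcl6b was 0.89 and 1.03 (mean 0.96 ± 0.15, limma adjusted p = 0.0357), and the adhesion receptor Pvr 1.03 and 0.54 (mean 0.79 ± 0.13, adjusted p = 0.0483). The highest other region was 0.62 for Ch25h and Bcl6b and 0.45 for Pvr. Both arrays of all 3 genes lay above those values, and the arrays differed most in Pvr.

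Sycp3l2, listed as a predicted gene, had treated signal well above background on both arrays and saline signal above it on neither. It was at least 2.77-fold higher (the saline channel was set to the dimmest signal that counts as measured), with a limma adjusted p of 0.0357. The other called genes with a symbol were smaller. They were the efflux transporter Abcg2 of the blood-brain barrier (0.64), Map3k6 (0.57), the cyclin Ccnl1 (0.56), Chmp1b2 and Foxq1 (0.55 each), Haus1 of the mitotic spindle (0.53, with -0.23 for a second probe of the gene) and the glucocorticoid-induced Tsc22d3 (0.48). Abcg2 was nearly equal on both arrays (0.63 and 0.64) and in the other regions (0.54 to 0.83), whereas Ccnl1 differed between arrays (0.86 and 0.27).

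**Figure D2:**
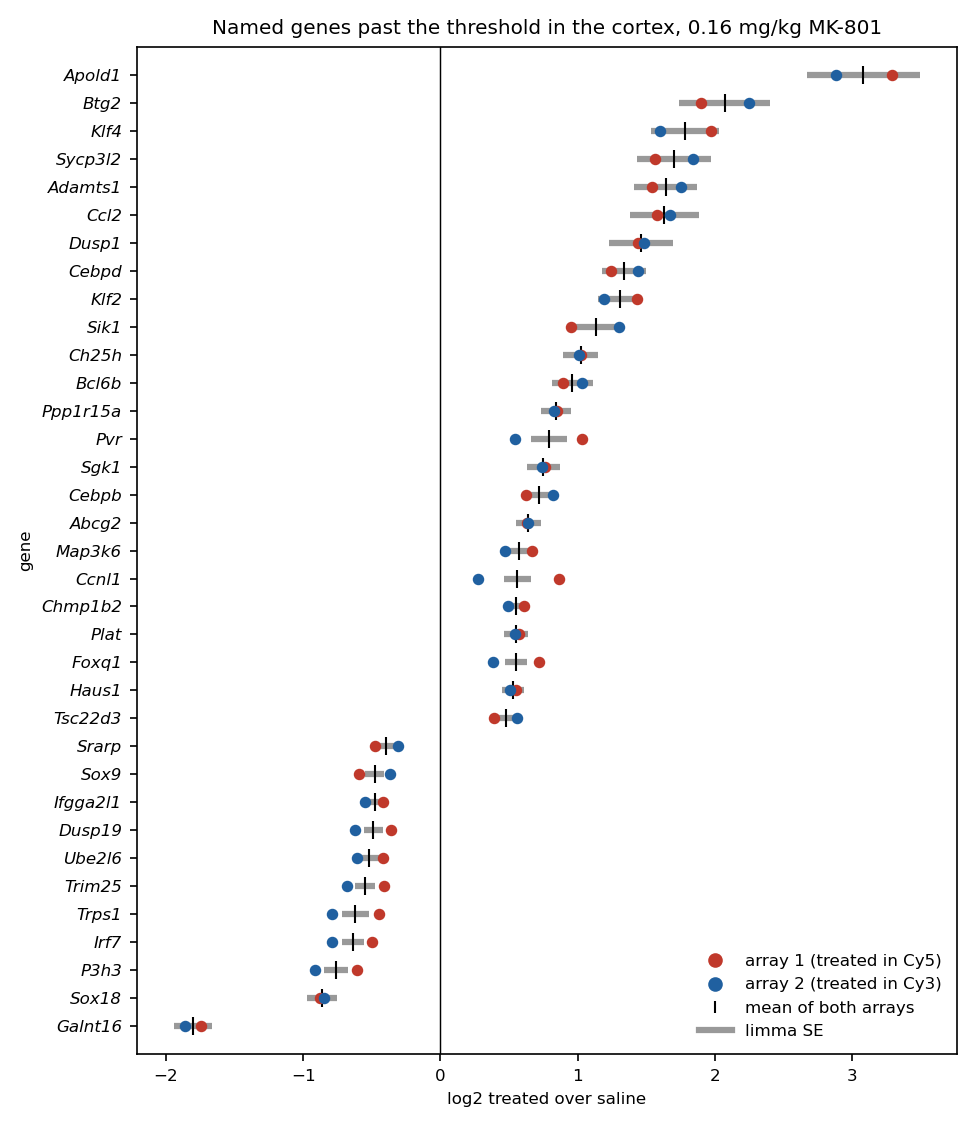
Log2 treated over saline on each array for the 24 higher and 11 lower named genes past the threshold. Red points are array 1, blue points array 2, black ticks the mean and grey bars the limma SE around it. All points of a gene lie on 1 side of 0, Sycp3l2 is drawn at its measured ratio although its saline signal was not well above background, and the arrays differ most in Ccnl1 and Pvr.

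Several of the largest ratios of the cortex were not past the threshold. These genes varied widely among the other regions, from which the fit takes its error. Ccn1, a secreted matrix protein of the early response listed as Cyr61, was 4.01 and 4.32, a mean of 4.16 ± 0.83 or 17.9-fold (limma adjusted p = 0.11). In the other regions it ran from 0.65 in the midbrain to 3.94 in the ventral striatum. Its other probe was at 2.49. Atf3, a stress-inducible transcription factor, was 3.02 and 2.73, a mean of 2.87 ± 0.57 (limma adjusted p = 0.101), against -0.10 in the midbrain to 2.03 in the ventral striatum. For both genes each cortex array was above every other region.

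Depp1 was 1.60 and 1.38 (limma adjusted p = 0.0679), Ier2 1.35 and 1.19 (0.0595), Jun 1.04 and 0.97 (0.214), Fos 0.72 and 1.08 (0.0595) and Edn1, the vasoconstrictor endothelin, 0.75 and 0.71 (0.14). A fit of all 24 arrays, added after the data had been seen, gave each region and dose its own group, with the replicate number as a block. Its error is the spread between dye-swapped arrays only, so it compares these extracts and not groups of rats. In that fit 210 of 19412 features passed (1.08%), 104 higher (0.536%) and 106 lower (0.546%). Among them were Ccn1 (adjusted p = 4.41e-16), Atf3 (7.37e-17), Depp1 (4.67e-11), Jun (5.98e-09), Fos (5.86e-07) and Edn1 (5.34e-07). Of the 59 features above, 54 could be fitted there and 53 passed. Klf4, Ier2 and Sgk1 were among the genes not fitted, since at least 1 of the 24 values was missing.

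Promoters of the increased genes are shown because some of them share a motif. RefSeq promoters (GRCr8, 250 bases before the start to 50 after) were matched for 19 of the 24 named higher genes and 7 of the 11 named lower genes. The full cAMP response element, TGACGTCA (its own reverse complement, so both strands read alike), was found in 6 of the 19 and 0 of the 7, against 1.59% of 33469 promoters. The 6 genes are printed 5′ to 3′ on the strand of the gene, with the motif in capitals.
Btg2: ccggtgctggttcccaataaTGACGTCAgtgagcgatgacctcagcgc
Dusp1: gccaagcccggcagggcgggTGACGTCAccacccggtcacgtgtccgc
Ch25h: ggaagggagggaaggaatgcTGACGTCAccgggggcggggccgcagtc
Ppp1r15a: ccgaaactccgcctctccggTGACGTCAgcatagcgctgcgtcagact
Ccnl1: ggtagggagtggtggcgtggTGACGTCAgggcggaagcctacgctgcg
Abcg2: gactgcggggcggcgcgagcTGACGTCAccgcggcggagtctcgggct
The windows lie at chr13:48087864-48087911 (Btg2, minus strand), chr10:17184709-17184756 (Dusp1, plus), chr1:241429416-241429463 (Ch25h, minus), chr1:105139635-105139682 (Ppp1r15a, minus), chr2:152507491-152507538 (Ccnl1, minus) and chr4:89075392-89075439 (Abcg2, plus). The motif began 50 to 201 bases before the start. Promoters of genes not past the threshold also held it, whether their ratios were large or small. These were Ier2 (1.35 and 1.19), Plekhf1 (0.30 and 0.63), Gpr6 (0.40 and -0.01), Ldha (0.06 and 0.18) and Neurod6 (-0.10 and -0.17). A CArG box and a glucocorticoid response element core were in 0 of the 19 windows, against 1.5% and 0.0418% of all promoters. Motifs this rare are likely to be missing from any 19 windows, so their absence cannot be read either way. A match describes letters in a window and was not tested as a binding site.

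Among gene lists, the immediate early transcription factors lay highest together with vascular and glucocorticoid-responsive genes. All lists were drawn up with earlier results of these data known, so their counts beside the share of all features are a description. Of 31 tested immediate early factors 4 rose (Klf4, Cebpd, Klf2 and Cebpb) and 0 fell, against 0.161% of all features higher. The list's median was 0.19 against 0.00 over all features, and 21 of its members were positive on both arrays (67.7%, against 18.2% of all features). Junb was at 0.57, Nr4a1 at 0.84 and Nr4a2 at 0.40. Of the Egr factors, which follow strong synaptic drive, Egr1 was -0.05, Egr2 -0.30, Egr3 -0.07 and Egr4 0.04, with none past the threshold. By the array-level fit 8 of 25 members were higher (0.536% of all features) and 1 lower (0.546%), Egr2 (adjusted p = 0.0165).

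Activity-regulated effector genes divided. Btg2 and Sik1 rose among 28 tested, against 0.161% of all features higher, with 0 lower and a median of 0.02. The growth arrest gene Gadd45g was at 0.64 (0.74 and 0.54; limma adjusted p = 0.177). Arc, a cytoskeletal protein of active synapses, was 0.28, whereas Bdnf (-0.22), Homer1 (-0.14), the cyclooxygenase Ptgs2 (-0.32) and the activin subunit Inhba (-0.35) were on the other side of 0 on both arrays. None of these 6 was past the limma threshold. In the array-level fit Inhba (adjusted p = 0.0316) and Ptgs2 (0.0157) were lower. MAP kinase phosphatases showed 1 higher and 1 lower of 10, against 0.161% and 0.11% of all features. These were Dusp1 above and Dusp19, at -0.36 and -0.62 (mean -0.49 ± 0.07, limma adjusted p = 0.0205).

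Of 21 vascular and matrix early genes 5 rose (Apold1, Klf4, Adamts1, Klf2 and Sgk1) and 1 fell (Sox18), against 0.161% higher and 0.11% lower over all features, with a median of 0.30. Ccn2, the connective tissue growth factor, was 0.59 (0.56 and 0.61; limma adjusted p = 0.059). Over 26 endothelial markers the median was 0.00, with 10 negative on both arrays (38.5%, against 19.2% of all features). Abcg2 alone of them was past the threshold. The junction proteins Cldn5 and Cdh5 were 0.03 and 0.04, Tjp1 was -0.08 and Ocln, the lowest of the list, -0.39 (-0.34 and -0.44). The difference between these lists was not tested, and both were drawn up with earlier results of these data known. For 15 pericyte and smooth muscle markers the median was -0.01, with 0 called. In these tissue pieces fewer cells of a type and less RNA per cell cannot be told apart.

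Of 26 glucocorticoid-responsive genes 5 rose (Dusp1, Cebpd, Sgk1, Map3k6 and Tsc22d3) and 0 fell, against 0.161% higher over all features, with a median of 0.23. Plekhf1 was 0.47, Errfi1 0.34 and Per1 0.28, none past the threshold. Ddit4 was -0.12 on array 1 and 0.75 on array 2, opposite in sign. The chaperone Fkbp5, a standard readout of the receptor, was 0.19 (0.30 and 0.09). Dusp1, Cebpd and Sgk1 are also on the early-gene lists, so the counts of the lists are not separate evidence.

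Blood cell markers lay on the same side of 0 without passing the threshold: 10 of 11 were positive, 8 of them on both arrays, with values from -0.08 to 0.47 and a median of 0.17. The platelet chemokine Pf4 was 0.47, Hbb 0.42 and the erythroid enzyme Alas2 0.40. By the array-level fit 2 of 9 were higher, against 0.536% of all features. The list's median was 0.13 over the other regions at this dose and -0.04 in the cortex at 0.08 mg/kg. Its part in the ratios of vascular and inflammatory genes was not tested.

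**Figure D3:**
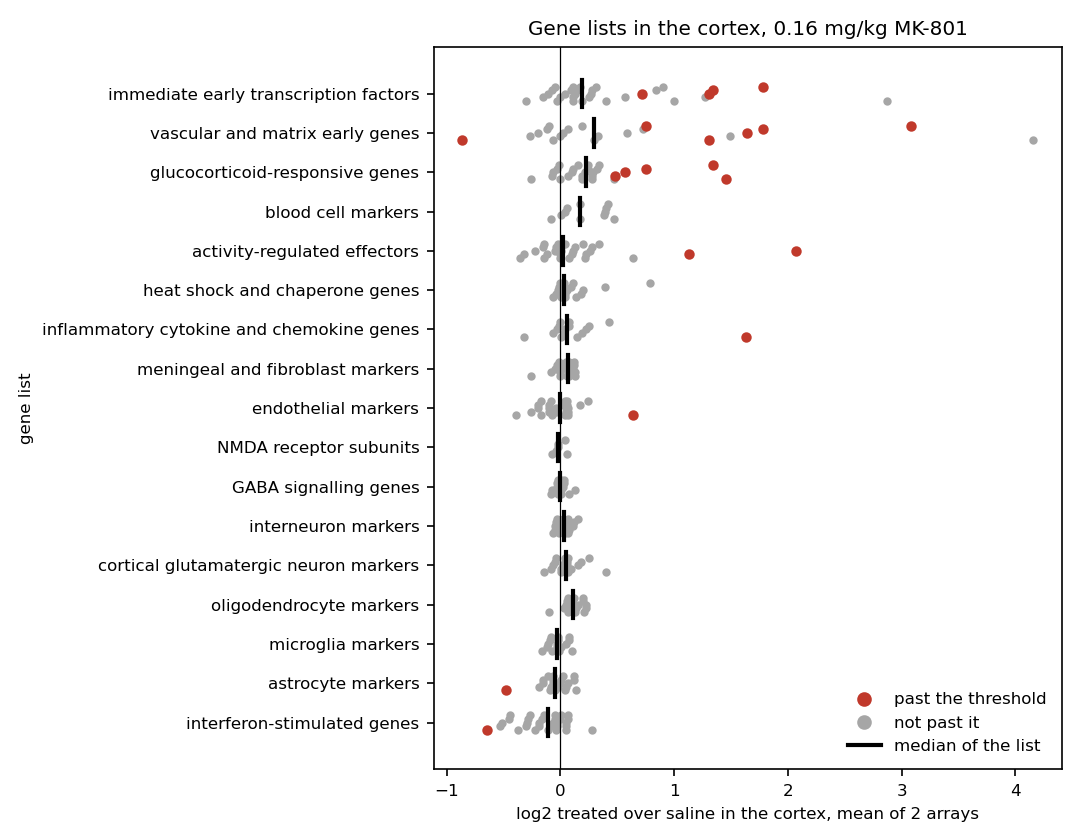
Log2 treated over saline in the cortex (mean of both arrays) for the tested members of 17 gene lists, with members past the threshold in red, others in grey and the median of each list as a black line. Early, vascular, activity-regulated, inflammatory and glucocorticoid-responsive lists have members far to the right. The NMDA receptor, GABA and interneuron lists stay within -0.08 to 0.16. Other cell type lists spread more widely, among them endothelial (-0.39 to 0.64), astrocyte (-0.48 to 0.14) and blood cell markers (-0.08 to 0.47).

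Transcripts of the drug's target were close to 0. Of 8 genes on the NMDA receptor list, which holds the receptor-associated Grina beside the subunits, 6 were tested and 0 passed the threshold. Grin2d and Grin3a were not tested. Grin1, the obligatory subunit, was 0.00 and -0.09, Grin2a -0.04 and 0.01, Grin2b -0.08 and 0.16, and Grin2c -0.22 and 0.08. The tested members lay between -0.07 and 0.06, the upper value being that of Grina. AMPA, kainate and metabotropic receptors (15 tested, median -0.02), GABA signalling genes (17, median 0.00), interneuron markers (20, median 0.03), dopamine and serotonin receptors (14, median 0.02) and voltage-gated potassium channels (29, median 0.02) also had 0 members past the threshold. Of all features 0.271% passed, so 0 is the likely count for any list of such length, here and in the other lists. The interneuron genes Pvalb (0.06), Sst (0.05) and Vip (-0.04) were close to 0, and so was Gad1 (0.08). Each was smaller in size than 0.12, the SD over all features of an array's deviation from the mean of both.

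The vesicular glutamate transporter Slc17a6 was 0.42 and 0.36 (limma adjusted p = 0.841), against -0.24 to 0.21 elsewhere. In the array-level fit it was higher than saline (adjusted p = 0.00375). Cortical glutamatergic markers had a median of 0.05 and oligodendrocyte markers 0.11, of which 17 of 18 were positive but 5 on both arrays. Microglia markers had a median of -0.03, clock genes 0.05, hypoxia and glycolysis genes 0.04 and ribosomal protein genes -0.03, with 0 past the threshold in each.

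The most decreased transcript was Galnt16, listed as Galntl1, a transferase of the first step of O-linked (mucin-type) glycosylation. It was -1.74 and -1.86, a mean of -1.80 ± 0.14 (limma adjusted p = 0.00162, the smallest of all features), or 0.287 of the saline level. The other regions lay between -2.24 and -1.78, so the cortex was at their upper end. The probe lies on chromosome 6 (104363509 to 104367590, rn3). The other 12 tested O-glycosylation genes ranged from -0.13 to 0.12 with none past the threshold.

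Sox18, a transcription factor of endothelial differentiation, fell in the cortex beyond its range elsewhere. It was -0.88 and -0.85, a mean of -0.86 ± 0.11 (limma adjusted p = 0.0193), against -0.44 to -0.05 in the other regions. Its other probe gave -0.79. The related Sox17 was -0.12 and not past the threshold. Sox9, a transcription factor of astrocytes, was -0.59 and -0.37 (mean -0.48 ± 0.07, limma adjusted p = 0.0357), and its 3 other probes were between -0.28 and -0.07. It was the single astrocyte marker of 21 past the threshold, with a list median of -0.05.

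P3h3, a collagen prolyl hydroxylase, was -0.61 and -0.91 (mean -0.76 ± 0.09, limma adjusted p = 0.0184), but its other probe was at 0.00. Trps1, a transcriptional repressor, was -0.45 and -0.79 (mean -0.62 ± 0.10, limma adjusted p = 0.0396), with other probes at -0.11 to 0.07. For these 2 genes the decrease thus rests on 1 probe. Srarp was -0.48 and -0.31, a mean of -0.40 ± 0.07 (limma adjusted p = 0.0452).

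Irf7, the transcription factor that amplifies type I interferon production, was -0.50 and -0.79 (mean -0.64 ± 0.08, limma adjusted p = 0.0184). It alone of the decreased genes is on the interferon-stimulated list. The ubiquitin ligase Trim25 of RIG-I signalling was -0.41 and -0.68 (mean -0.55 ± 0.07, adjusted p = 0.0193), Ube2l6, which conjugates Isg15, was -0.42 and -0.61 (mean -0.52 ± 0.08, adjusted p = 0.0357), and the GTPase Ifgga2l1 -0.42 and -0.55 (mean -0.48 ± 0.07, adjusted p = 0.0322). Irf7 was as low in the other regions (-0.67 to -0.49), whereas Trim25 lay between -0.25 and -0.09 there.

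Of 31 tested members of the interferon-stimulated list, Irf7 alone fell and 0 rose, against 0.11% of all features lower. The median was -0.11, and 17 members were negative on both arrays (54.8%, against 19.2% of all features). Not past the threshold were Oas1a at -0.53 (-0.49 and -0.57), Rtp4 at -0.51, Gbp2 at -0.45, Isg15 at -0.44 and Bst2 at -0.37, and on the other side Ifit3 at 0.28. By the array-level fit 7 of 29 members were lower (0.546% of all features) and 0 higher (0.536%). The deaminase Apobec1 and the amylase Amy1, at -0.60 and -0.56, completed the 15 lowest named genes without passing the threshold. For 22 class I and class II histocompatibility genes the median was -0.05, with 0 called, and by the array-level fit 2 of 21 were lower (0.546% of all features). Their sequences resemble each other, so probes may cross-hybridise.

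The interferon-stimulated response element (GAAANNGAAA, either strand) was in 2 of the 7 matched promoters of lower genes, Irf7 and Ifgga2l1, and in 1 of the 19 of higher genes, Foxq1, against 3.41% of all promoters. The window of Irf7 (chr1:205800063-205800112, minus strand, GRCr8, RefSeq) is shown with the element, here on the opposite strand, in capitals.
Irf7: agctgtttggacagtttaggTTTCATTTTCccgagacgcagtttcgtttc
Oas1a held the element as well, in overlapping copies.
Oas1a: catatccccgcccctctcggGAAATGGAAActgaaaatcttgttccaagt
This window lies at chr12:41330405-41330454 on the plus strand. Further genes not past the threshold held the element in their promoters. These were Gbp2 (-0.45), Bst2 (-0.37), RT1-S3 (-0.21), Ctss (-0.12) and Per1, which was positive on both arrays (0.12 and 0.44).

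Set against the other regions, the cortex had the highest ratio of all 6 regions in 26 of the 35 higher features (background 15.8%) and the lowest in 18 of the 24 lower ones (background 13.4%). A gene is called partly because its cortex value is large, so these shares are a description. When the difference itself was tested, 0 features passed the limma threshold (0% of 21754), with 596 (2.74%) at an unadjusted p under 0.05 and a smallest adjusted p of 0.43, that of Cebpb. The fit with both doses called 2, the array-level fit with region groups pooled 3, and the array-level fit with a group per region 40 (0.206%), of which 29 were higher in the cortex (0.149%).

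By size, the cortex exceeded the mean of the other regions most in Ccn1 (1.78 ± 0.91), Atf3 (1.69 ± 0.62), Apold1 (1.38 ± 0.45), Ccl2 (1.25 ± 0.28), Adamts1 (1.17 ± 0.25), Hspa1a (0.95 ± 0.17), Btg2 (0.94 ± 0.36) and Cebpd (0.86 ± 0.18). All 8 passed in the array-level fit with a group per region, with adjusted p from 3.76e-11 for Atf3 to 2.96e-05 for Adamts1. Against the ventral striatum alone, scanned on the same day, the difference was 0.23 for Ccn1 and 0.27 for Btg2 but 1.06 for Ccl2, 0.91 for Apold1, 0.89 for Adamts1 and 0.84 for Atf3. Ccn1 and Btg2 were thus close to the cortex in that region.

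Hspa1a, the stress-inducible Hsp70 chaperone, was positive in the cortex and near or below 0 elsewhere. It was 0.79 on both cortex arrays (limma adjusted p = 0.0845 against saline and 0.817 against the other regions), between -0.43 and 0.06 in the other regions and 0.13 in the cortex at 0.08 mg/kg. Its other probe gave 0.58. Other chaperones were lower in size: Hspb1 was 0.57 and 0.22, Cryab 0.20, Bag3 0.18, and the list's median was 0.03 over 20 genes with 0 past the threshold.

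On the lower side the difference was largest for Sox18 (-0.60 ± 0.12), Prpf19 (-0.44), Mrpl43 (-0.43), Trim25 (-0.39 ± 0.08), the tight junction protein Ocln (-0.39), Marf1 (-0.38), Thumpd1 (-0.31) and Apoc1 (-0.31). Of these, Sox18 (adjusted p = 0.000107) and Trim25 (0.0105) passed in the array-level fit with a group per region. Prpf19, Mrpl43 and Thumpd1 did not, and Ocln, Marf1 and Apoc1 lacked a value on some array and could not be fitted there.

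**Figure D4:**
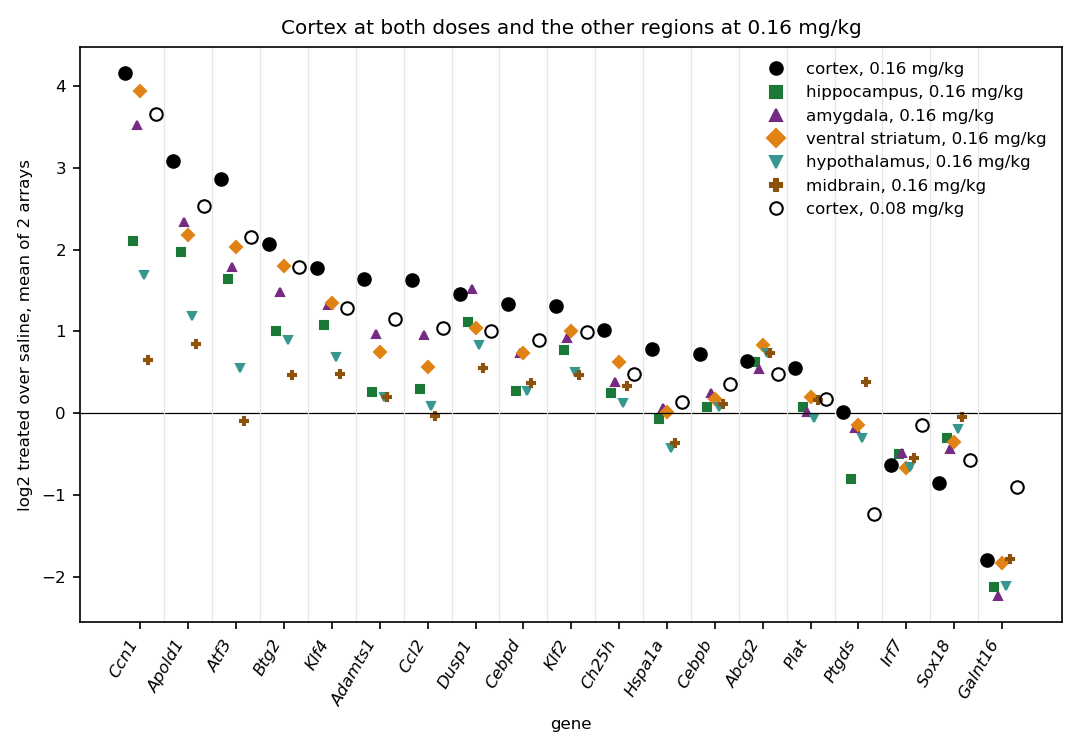
Log2 treated over saline (mean of 2 arrays) of 19 genes in the cortex at 0.16 mg/kg (filled circles), in the other 5 regions at that dose (coloured symbols) and in the cortex at 0.08 mg/kg (open circles). The cortex is the highest region for Ccn1, Apold1, Atf3, Adamts1, Ccl2 and Hspa1a, and Ptgds is near 0 at the high dose but -1.24 at the low dose.

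The cortex at 0.08 mg/kg may have been compared with the same saline RNA, so its values are first given side by side. A test of the difference between doses follows below. Ccn1 was 3.56 and 3.76 at the lower dose, Apold1 2.72 and 2.34, Btg2 1.77 and 1.81, Klf4 1.56 and 1.02, Ccl2 1.11 and 0.98, and Cebpd 0.81 and 0.98. Each of these values was below that of the same array orientation at 0.16 mg/kg. The genes were named for large values at 0.16 mg/kg, which favours lower values at the other dose, so this is a description.

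The difference between doses is free of the saline reference only if both doses were set against the same extract, which the labels do not state. In this difference 24 of 21437 features passed the limma threshold (0.112%), 14 higher (0.0653%) and 10 lower (0.0466%) at the high dose, with 1007 at an unadjusted p under 0.05. None of the early genes named above was among them. Their differences were 0.56 ± 0.21 for Apold1 (limma adjusted p = 0.859), 0.51 ± 0.27 for Ccn1 (1), 0.58 ± 0.17 for Ccl2 (0.48) and 0.56 ± 0.09 for Sik1 (0.0585). Hspa1a differed by 0.66 ± 0.11 (limma adjusted p = 0.0459). The count was 12 without replicate 1 and 4 without replicate 2, 93 without the midbrain, 11 without the hippocampus and 14 without the ventral striatum.

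Some decreased genes were lower after 0.16 than after 0.08 mg/kg. Galnt16 was -0.91 on both low-dose arrays, a difference of -0.89 ± 0.12 (limma adjusted p = 0.0159). Irf7 was 0.02 and -0.29 at the low dose (difference -0.50 ± 0.08, adjusted p = 0.0452). P3h3 was 0.56 and 0.13 (difference -1.10 ± 0.10, adjusted p = 0.00185), on the opposite side of 0 from the high dose.

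Higher after 0.16 than after 0.08 mg/kg were Haus1 (1.11 ± 0.10, limma adjusted p = 0.00106) and Sycp3l2 (adjusted p = 0.0208). The difference in Sycp3l2 has no exact size, since its saline signal was not well above background on either high-dose array, and ran from 1.49 to 5.70 over the alternatives. The prostaglandin D synthase Ptgds (1.24 ± 0.18, limma adjusted p = 0.0245), Coch (1.22 ± 0.11, adjusted p = 0.00106), Tnnt2 (1.17 ± 0.18, adjusted p = 0.0318) and the connexin Gjb2 (0.99, adjusted p = 0.0452) differed mainly through their low-dose values. They were near saline at the high dose (0.01, -0.10, -0.12 and -0.08) and low at the low dose (-1.24, -1.33, -1.29 and -1.07). Ptgds and Gjb2 are markers of the meninges. That list of 22 tested genes had a median of 0.06 at the high dose, with values from -0.26 to 0.13, and of -0.59 in the cortex at the low dose. Its part in the dose differences of these 4 genes was not tested.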

How the data were processed

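RNA of treated and saline rats was hybridised to 2-colour Agilent rat arrays. Per the file headers, the scanner output holds spot intensity, local background and processed signals in both channels, made with Agilent Feature Extraction 9.5.3.1, per the submitters' processing notes. The value table deposited by the authors is log10 of treated over saline, since 100% of its values lay within 0.01 of the scanner software's processed ratio. No label or header describes any further centring. From the mean signals, background was corrected with normexp (offset 50) and the log2 ratio was normalised by loess array by array, giving control spots no weight. The packages were limma 3.58.1 and data.table (version 1.17.8) for R 4.3.3. Outlier spots were left out, swapped arrays were turned, spots of a probe were averaged, and the brightest of the 41012 probes of a gene stood for it. Names were updated through RefSeq (GRCr8). Probe coordinates are those of the files (rn3).

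Each pair of arrays gave 1 value. Cortex against saline, cortex against the other 5 regions, and the high against the low dose were fitted with limma over 6 regions, with the cortex as its own group. Named were the 15 highest and 15 lowest genes against saline, the 8 by region and 5 by dose on each side, with list members past the threshold or largest, filled up by size; 1 gene of the dose comparison is not reported here. Further genes, among them Fos, Junb, Nr4a1, Edn1, the Egr factors, Arc, Bdnf, Ccnl1, Plat, Foxq1 and Chmp1b2, were named after their values were seen. The comparison, the gene lists and this rule were drawn up with earlier results of these data known. The fit was checked on simulated data. There the cortex was given the spread of the other regions and regions varied independently, so these assumptions were not checked. The number of arrays limits the precision. Alternatives were processed signals, median centring, an offset of 16, the deposited table, other filters, the mean over probes, each replicate or region left out, the replicate block, both doses in 1 fit and scan day as a block. Cortex and ventral striatum shared scan day 1. Each region lay on a slide of its own. Array replicate numbers name the dye orientation and pair no rats.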

Additional observations from a re-analysis of the deposited data

Results flagged for a closer look

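Among 39 genes with values in all 6 regions at the high dose, 4 had 1 region far from the other 5, measured by its gap to the nearest as a share of the whole range, and 3 of these regions were the cortex. Chance gives such a gap in about 1 in 20 genes, but most of these genes were named for a large cortex value, which favours the cortex as the region that stands apart, so that rate cannot be applied to them. Trim25 stood at -0.55 in the cortex, Srarp at -0.40 and Thumpd1 at -0.32, each below the others. Rtp4 stood at -0.08 in the amygdala, above the others, which included the cortex at -0.51. Thumpd1 differed between arrays (-0.10 and -0.55), and its other probe gave 0.14.

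The ratio to saline in the cortex differed between doses, by the limma test of the difference, in several of the genes named. The high dose was above the low dose for Ptgds (1.24), Coch (1.22), Tnnt2 (1.17) and Haus1 (1.11), and below it for P3h3 (-1.10), Galnt16 (-0.89) and Irf7 (-0.50). The other probes of Haus1 and P3h3 (-0.23 and 0.00 at the high dose) did not follow. Sycp3l2 was also higher at the high dose, with a fitted difference of 1.77 that has no exact size because its saline signal was not well above background (1.49 to 5.70 over the alternatives). Beside Ptgds, Coch and Tnnt2, the meningeal markers had a median of -0.59 at the low dose and 0.06 at the high dose, and their part in these differences was not tested.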

How the results depend on the processing

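Against saline, 59 features passed the threshold. Processed signals of the scanner software gave 2, the deposited values 0, an offset of 16 gave 18, median centring 13, no filter on dim probes 34, the array-level fit with the replicate block 124 and that with a group per region and dose 210. Leaving out a replicate or a region gave 15 to 81. Of the 35 named genes, 34 lost the call under processed signals, 35 under deposited values, 23 at an offset of 16, 27 under median centring and, where they could be fitted, 0 under the array-level fits. None changed sign. Galnt16 passed in 17 of 18 alternatives, Klf2 and Ch25h in 16, Apold1 and Cebpd in 15. Btg2 and Bcl6b passed in 9 of 18, Dusp1 in 8, Trps1 in 7, Pvr and Srarp in 6. Of 16 alternatives that could be fitted, Sox9 passed in 6, Sgk1 in 5 and Tsc22d3 in 3. The cause of the lower counts was not tested.

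Cortex against the other regions gave 0 in all alternatives except 2 with both doses in 1 fit, 3 with the replicate block and 40 with a group per region and dose. Thumpd1 changed sign to 0.02 with the mean over probes. Between doses the count of 24 became 1 under processed signals, 1 under deposited values, 6 at an offset of 16, 7 under median centring, 5 with both doses in 1 fit, 114 with the replicate block and 108 with a group per region and dose. Leaving out a replicate or region gave 4 to 93. Scan day as a block gave 54, 0 and 21. The replicate numbers mark dye orientation only. Dim probes limit precision: Sycp3l2 had no saline signal well above background.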
